A study of Mus musculus with 6 samples.

Results

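The proteasome genes of the mouse, recognised by symbols that begin with Psm, a family letter from a to g and a number, were examined in morula-like aggregates treated with perfluorooctanoic acid (PFOA) or with the vehicle dimethyl sulfoxide (DMSO). The symbol pattern took in 51 of the 18388 genes of the table. They are 8 Psma and 11 Psmb genes of the proteolytic core, the 6 ATPases Psmc1 to Psmc6, 14 Psmd genes, 5 Psme activator genes, Psmf1, 4 Psmg assembly chaperones, and Psmc3ip and Psme3ip1. These last genes are named after a subunit that their protein binds and do not encode parts of the proteasome.

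Aggregates were formed from expanded pluripotent stem cells of the mouse, which can contribute to embryonic and extraembryonic lineages, at 37 °C under 5% CO2 and 20% O2, and polyadenylated RNA was sequenced. There were 3 DMSO libraries and 3 PFOA libraries, and values below are given in the order of replicates 1, 2 and 3, which carries no meaning. PFOA is a persistent fluorinated surfactant. The labels give 1 cell source and 1 culture protocol for all 6 libraries, and neither strain nor dose nor exposure time was found in the sources used here. Whether the replicates were separate cultures is not stated, so each p-value reflects only the spread among libraries, and that spread may be technical. The aggregates are a stem cell model of the compacting embryo.

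The proteasome breaks down proteins that carry ubiquitin chains. Its barrel-shaped core is built of outer alpha rings (Psma), which gate the entrance, and inner beta rings (Psmb), whose Psmb5, Psmb6 and Psmb7 subunits cut proteins. The regulatory particle caps the barrel: in its base, a ring of ATPases (Psmc) unfolds the substrate beside non-ATPase subunits, and its lid (most Psmd proteins) removes ubiquitin. Dedicated chaperones assemble the core (Psmg proteins and Pomp) and the base (Psmd5, Psmd9 and Psmd10). Interferon-induced subunits (Psmb8, Psmb9, Psmb10) can take the place of the cutting subunits, and pluripotent stem cells are known for high proteasome activity.

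Levels are in FPKM, which divides the fragments of a gene by transcript length and by the mapped total of its library, so they can be compared between genes. FPKM summed to 641975 to 657239 in DMSO and 585739 to 630644 in PFOA, lowest in PFOA 1, and the sequencing depth is unknown. DMSO 1 and 2 stood apart from the other libraries in a few genes, such as the pseudogene Rpl31-ps12, at 64.4 and 59.5 FPKM there and 0, 0, 0.48 and 0.35 in DMSO 3 and PFOA 1 to 3. All 12 pluripotency markers listed were detected, summing to 4882 to 5102 FPKM in DMSO and 4274 to 4742 in PFOA. Fibroblast markers, which feeder cells would bring, summed to 201 to 208 and 205 to 220.2 FPKM, mostly from Fn1, and none of the 12 was listed at 0 in any library. Of the 10 fibroblast genes tested, 8 were lower in PFOA, as were 6 of 12 pluripotency, 4 of 7 trophectoderm and 1 of 3 primitive endoderm markers; Gata6, Sox17, Pdgfra, Foxa2 and Sox7 were below a mean of 1 FPKM. Their part in the proteasome values was not tested.

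The standard subunits were abundant and close to one another in level. The 14 core subunits Psma1 to Psma7 and Psmb1 to Psmb7 had mean levels over the 6 libraries from 135 FPKM (Psma5) to 429 (Psmb3), with a median of 212. The 17 regulatory particle subunits with a Psm name ranged from 90.4 (Psmd6) to 218 (Psmc1), with a median of 149.8. Adrm1 and Sem1 belong to this particle but carry other names, and they are not among the 17. The median of the 11876 genes with a mean of at least 1 FPKM was 12.0. Psmb3, a non-cutting subunit of the beta ring, had the highest level of all Psm genes: 459.9, 472 and 444 FPKM under DMSO and 348, 435 and 416 under PFOA. Each PFOA value was below each DMSO value, with PFOA 1 the lowest. The Psmg and base chaperones were scarcer than the standard subunits. The Psmg genes ranged from 20.9 (Psmg3) to 69.0 (Psmg1), and the base chaperones Psmd10, Psmd9 and Psmd5 had means of 11.4, 12.3 and 47.3. Together the Psm genes made up 1.01% to 1.03% of all FPKM in DMSO and 1.00% to 1.01% in PFOA. In bulk RNA, fewer cells of a type and less RNA per cell cannot be told apart.

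**Figure D1:**
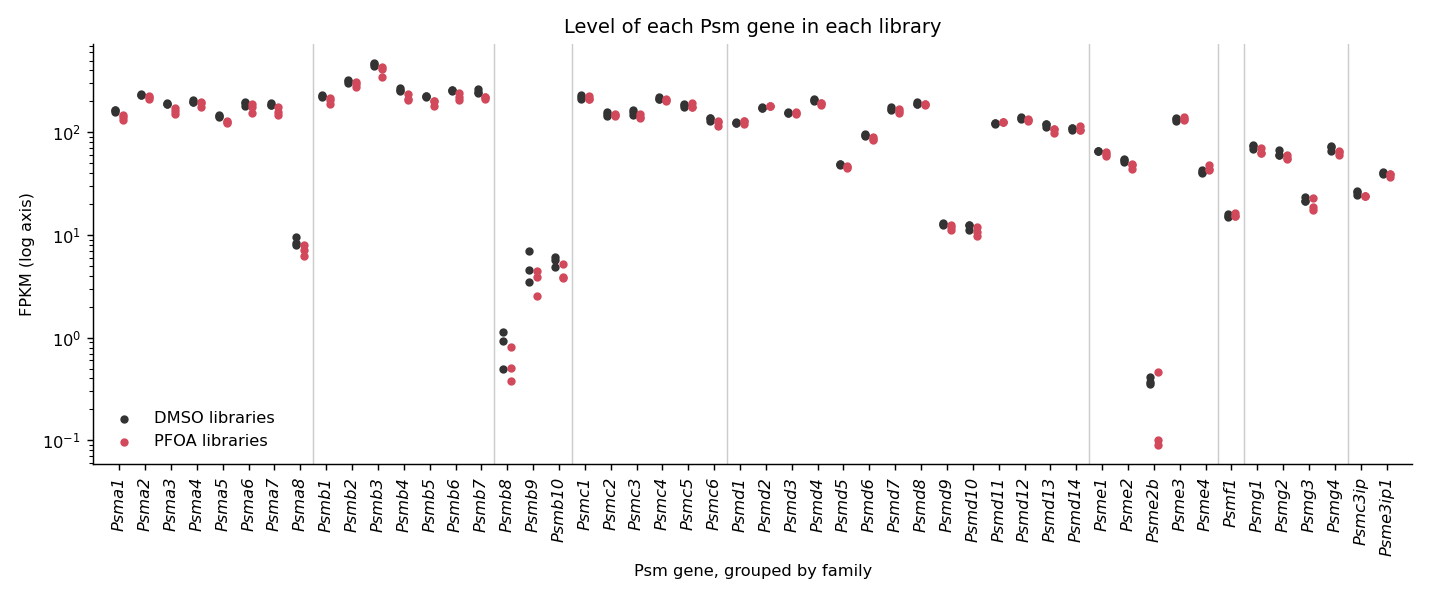
FPKM of each Psm gene in each library (log axis; 1 point per library, DMSO dark, PFOA red), grouped by family, without Psmb11, which was listed at 0 in several libraries. The standard core and regulatory particle subunits lie between 90.4 and 429 FPKM on average, with Psma8 and Psmb8 to Psmb10 far below them.

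In PFOA the core subunits were lower than in DMSO and the regulatory particle differed less, and 0 of 48 tested Psm genes passed the test over all genes in either direction (limma, Benjamini-Hochberg adjusted p under 0.05; 0.00842% of all genes passed). The smallest adjusted p among them was 0.110. Psmb8, Psmb11 and Psme2b were left out of the test by their mean below 1 FPKM. Of the 48, 42 were lower and 6 higher in PFOA, at a median log2 fold change of −0.11. Over all genes tested, 52.4% were lower and the median was −0.0065. The tested Psm genes are shorter, with a median longest transcript of 1490.5 nt against 3043 nt over all genes tested. Of the other genes from 1000 to 1500 nt and from 1500 to 2000 nt, 85.6% and 78.5% were lower. At an unadjusted limma p under 0.05, 24 Psm genes were lower, against 12.5% of all genes, and 1 was higher, against 8.56%. The FPKM of the groups did not overlap for 24 Psm genes with PFOA lower (13.7% of all genes) and for 3 with PFOA higher (13.5%). The count of 24 was 14 without DMSO 1, 13 without DMSO 2, 16 without PFOA 1 and 8 with DMSO 3 as the only control. Quantile normalization gave 13. The shares of all genes under these alternatives are not given here, so the counts cannot be set against the 12.5% above. PFOA 1 was the lowest of the 6 libraries for 36 of the 48 genes.

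The families differed in the size of the difference. All 14 standard core subunits were lower, at a median log2 fold change of −0.20 (−12.8%) and values from −0.25 to −0.088, and 12 of them did not overlap between the groups. The 17 ATPase, base and lid subunits with a Psm name had a median of −0.039, from −0.17 to 0.049. Of these, 5 did not overlap with PFOA lower (13.7% of all genes) and 2 with PFOA higher (13.5%). Adrm1 and Sem1, outside these 17, were at −0.15 without overlap and −0.13 with overlap. The per-library medians of the core, relative to the DMSO mean of each gene, were −0.0054, 0.019 and 0.0014 under DMSO and −0.29, −0.12 and −0.16 under PFOA. Every PFOA library was below every DMSO library, and PFOA 1 was the lowest for all 14 core genes. For the regulatory particle they were 0.00011, −0.0067 and −0.014 under DMSO and −0.077, −0.045 and 0.0024 under PFOA, and the groups overlapped. Members of a complex are not replicates, so the families were compared through the libraries and without a test. The summed FPKM of Psmb1 to Psmb7 was 1.87, 1.87 and 1.89 times that of Psmc1 to Psmc6 under DMSO and 1.65, 1.80 and 1.70 times under PFOA. For Psma1 to Psma7 the ratio to the ATPases was 1.21, 1.23 and 1.26 and then 1.12, 1.20 and 1.12. Both ratios were lower in each PFOA library than in any DMSO library.

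**Figure D2:**
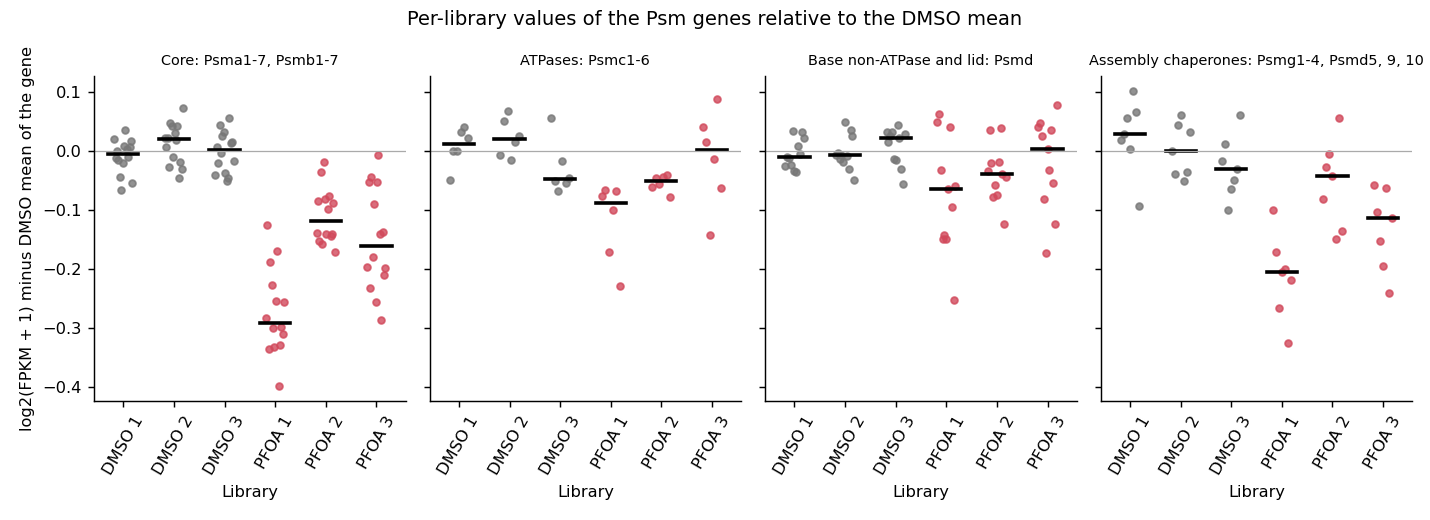
log2(FPKM + 1) of each gene minus its mean in DMSO, by library (1 point per gene, bars are medians over genes, DMSO grey, PFOA red), for the core, the ATPases, the base and lid subunits and the assembly chaperones. The core medians in PFOA are −0.29, −0.12 and −0.16, and those of the ATPases are −0.089, −0.051 and 0.0010.

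In the alpha ring all 7 standard subunits were lower in PFOA, and 6 of them did not overlap between the groups (13.7% of all genes with PFOA lower). Psma3, a structural subunit, was 190.4, 193 and 188 FPKM under DMSO and 151, 171 and 162 under PFOA, with means of 191 ± 2.9 against 161 ± 10.3 FPKM (SD, n = 3 each). Its log2 fold change was −0.24 (95% confidence interval −0.35 to −0.13, limma adjusted p = 0.110). All PFOA values lay below the DMSO values, with PFOA 1 lowest. Psma5 was 139.6, 149 and 144 FPKM under DMSO and 123, 129 and 127 under PFOA (log2 fold change −0.19, limma adjusted p = 0.110), again without overlap. Of its 50-nt words 49.1% also occur in transcripts of the predicted genes Gm8394 and Gm12989, so its value is uncertain if reads common to these genes were divided in counting. Psma4 and Psma6 were the closest to 0 after Psma2, at −0.089 and −0.14, against −0.088 for Psma2. Psma8, the alpha subunit known from the testis, was detected at a low level: 9.51, 8.02 and 8.29 FPKM under DMSO and 7.95, 7.17 and 6.26 under PFOA (log2 fold change −0.24, limma adjusted p = 0.183). Its PFOA values were all below its DMSO values.

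Among Psmb1 to Psmb7 of the beta ring, the largest difference was that of Psmb4, a non-cutting subunit: 258, 252 and 271 FPKM under DMSO and 207, 235 and 213 under PFOA, with means of 260.4 ± 9.4 against 219 ± 14.9 FPKM (SD, n = 3 each). This is a log2 fold change of −0.25 (95% confidence interval −0.38 to −0.13, limma adjusted p = 0.118). The 3 cutting subunits were also lower and none of them overlapped between groups (13.7% of all genes did not overlap with PFOA lower). Psmb5, of the chymotrypsin-like activity, was 224, 220.3 and 225 FPKM under DMSO and 181, 202 and 203 under PFOA (log2 fold change −0.19, limma adjusted p = 0.128). Psmb6, of the caspase-like activity, was 259.7, 251 and 259.6 FPKM under DMSO and 207, 242 and 222 under PFOA (−0.20, limma adjusted p = 0.135). Psmb7, of the trypsin-like activity, was 241, 264 and 248 FPKM under DMSO and 209.7, 223 and 218 under PFOA (−0.21, limma adjusted p = 0.118). In these genes PFOA 1 was the lowest library. Psmb5 shares 54.1% of its 50-nt words with other transcripts, among them the pseudogene Psmb5-ps. Psmb2 had the smallest difference of the 7, at −0.091, and its groups overlapped. Without PFOA 2, Psma3, Psmb4 and, named after its value was seen, Psma7 passed the threshold with all 3 lower (limma adjusted p = 0.0498, 0.0456 and 0.0441). How many of all genes passed in that fit is not given here, so these 3 cannot be set against a share.

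Proteasome genes are known to be induced by the factor NRF1 (Nfe2l1) through antioxidant response elements, so the RefSeq promoters (GRCm38.p6; 250 bases before to 50 after the start) were searched on both strands for the core letters TGACNNNGC. Of the 43 Psm genes with a promoter in the table, 6 held a match (13.95%), against 13.99% of all 27025 genes. The E-box letters CACGTG, which MYC can bind, were in 5 Psm genes (11.6%, against 8.09%), and the CCAAT box in 16 (37.2%, against 41.1%). The 60 bases that hold the match are shown for the cutting subunits Psmb5 and Psmb6, whose levels are given above, and for the base chaperone Psmd9, with the match in capitals.
Psmb5 (minus strand, chr14:54618009-54618068): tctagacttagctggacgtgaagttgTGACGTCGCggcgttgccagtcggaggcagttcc
Psmb6 (plus strand, chr11:70525297-70525356): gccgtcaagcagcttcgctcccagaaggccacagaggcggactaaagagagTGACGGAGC
Psmd9 (plus strand, chr5:123228130-123228189): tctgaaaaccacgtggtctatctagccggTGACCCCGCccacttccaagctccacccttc
The matches lie at positions −47 to −39, −9 to −1 and −31 to −23 relative to the start. Psmd9 also holds a CACGTG in this stretch, from position −51. A match of letters is a description of the promoter and not of a bound site.

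The interferon-induced cutting subunits were far scarcer than their standard counterparts. Psmb9, which replaces Psmb6, was 3.46, 7.02 and 4.56 FPKM under DMSO and 3.90, 4.44 and 2.53 under PFOA, and its groups overlapped (log2 fold change −0.36, 95% confidence interval −0.86 to 0.14, limma adjusted p = 0.377). Single libraries moved this value: it was −0.13 without DMSO 2, −0.18 without PFOA 3 and −0.55 without DMSO 1. Psmb10, which replaces Psmb7, was 5.66, 6.05 and 4.89 FPKM under DMSO and 3.82, 5.24 and 3.91 under PFOA (−0.30, limma adjusted p = 0.185), with PFOA 2 inside the DMSO range. Psmb8, which replaces Psmb5, was 1.13, 0.50 and 0.92 FPKM under DMSO and 0.51, 0.81 and 0.38 under PFOA, under the minimum mean for testing. Relative to its counterpart, Psmb9 ranged from 1.14% to 2.79% of Psmb6 over the 6 libraries, Psmb10 from 1.79% to 2.35% of Psmb7 and Psmb8 from 0.187% to 0.504% of Psmb5. The groups overlapped in each of these ratios. Psmb11, the cutting subunit of the thymus, was the lowest Psm gene: 0, 0.01 and 0 FPKM under DMSO and 0, 0.03 and 0.02 under PFOA.

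The 6 ATPases of the base were all slightly lower, by a median log2 fold change of −0.043, which quantile normalization turned to 0.029 and a correction for transcript length, described below with its values, to 0.032. Only Psmc6 did not overlap between groups: 136, 137 and 129.9 FPKM under DMSO and 114, 127 and 129 under PFOA (log2 fold change −0.12, limma adjusted p = 0.218). Psmc3 was 156, 164 and 149 FPKM under DMSO and 139, 150.2 and 141 under PFOA (−0.12, limma adjusted p = 0.201), with PFOA 2 above DMSO 3. The other 4 lay between −0.053 and −0.0068. Psmc5 had the difference closest to 0, with a 95% confidence interval from −0.12 to 0.11, which takes in the smallest core difference, −0.088 (Psma2).

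Among the 14 Psmd genes, 11 were lower and 3 higher, with a median of −0.069, which quantile normalization turned to 0.0014. The lid subunit Psmd13 had the largest difference: 121, 120.3 and 114 FPKM under DMSO and 99.1, 108 and 108 under PFOA, with means of 118 ± 4.0 against 105 ± 5.4 FPKM (SD, n = 3 each). This is a log2 fold change of −0.17 (95% confidence interval −0.27 to −0.060, limma adjusted p = 0.137). Psmd6, also of the lid, was 96.5, 93.0 and 93.3 FPKM under DMSO and 85.3, 90.5 and 83.5 under PFOA (−0.12, limma adjusted p = 0.160). Neither gene overlapped between the groups. The ubiquitin receptor Psmd4 was lower by a log2 fold change of −0.10 without overlap, and the lid deubiquitinase Psmd14 was at −0.0089. Singled out after their values were seen, the 3 higher genes were the base scaffolds Psmd1 (0.018) and Psmd2 (0.049) and the lid subunit Psmd11 (0.038). Psmd2 was 173, 173 and 176 FPKM under DMSO and 182, 178 and 179.9 under PFOA, and all PFOA values exceeded those under DMSO (limma adjusted p = 0.418).

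The chaperones of the core were lower in PFOA, 4 of 4, with a median of −0.15. Psmg4 was 66.3, 72.3 and 73.9 FPKM under DMSO and 60.6, 64.3 and 65.3 under PFOA, without overlap (log2 fold change −0.16, 95% confidence interval −0.27 to −0.041, limma adjusted p = 0.156). Psmg1 was 72.8, 75.8 and 69.3 FPKM under DMSO and 62.8, 70.5 and 63.2 under PFOA, where PFOA 2 exceeded DMSO 3 (−0.15, limma adjusted p = 0.185). Psmg2 and Psmg3 were at −0.14 and −0.17. The base chaperones Psmd5, Psmd9 and Psmd10 were at −0.080, −0.10 and −0.14.

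The activators, which open the core gate in place of the regulatory particle, had differences of both signs, 2 of 4 lower, with a median of −0.036 that quantile normalization turned to 0.016. Psme2, of the interferon-induced activator, was 54.3, 51.1 and 54.4 FPKM under DMSO and 47.7, 49.4 and 43.8 under PFOA (log2 fold change −0.18, limma adjusted p = 0.137), without overlap and lowest in PFOA 3. It shares 28.3% of its 50-nt words with other transcripts, including its near-copy Psme2b, which was 0.35, 0.41 and 0.37 FPKM under DMSO and 0.10, 0.09 and 0.46 under PFOA. Its partner Psme1 was at −0.085 and the nuclear activator Psme3 at 0.013. Psme4, a large nuclear activator, was the 1 Psm gene higher at an unadjusted limma p under 0.05: 40.6, 40.3 and 42.5 FPKM under DMSO and 48.2, 44.3 and 43.3 under PFOA, with means of 41.1 ± 1.2 against 45.3 ± 2.6 FPKM (SD, n = 3 each). This is a log2 fold change of 0.13 (95% confidence interval 0.023 to 0.24, limma adjusted p = 0.180). Each PFOA library was above each DMSO library, and without DMSO 1, DMSO 2 or PFOA 1 its unadjusted p was not under 0.05. The regulator Psmf1 was 15.3, 15.8 and 14.99 FPKM under DMSO and 15.3, 15.2 and 16.3 under PFOA (0.019, limma adjusted p = 0.848), with overlapping groups. Outside the complex, the meiotic recombination factor Psmc3ip was 24.6, 26.7 and 26.4 FPKM under DMSO and 24.2, 23.9 and 24.2 under PFOA (−0.10, limma adjusted p = 0.225), without overlap, and Psme3ip1 was at −0.060.

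**Figure D3:**
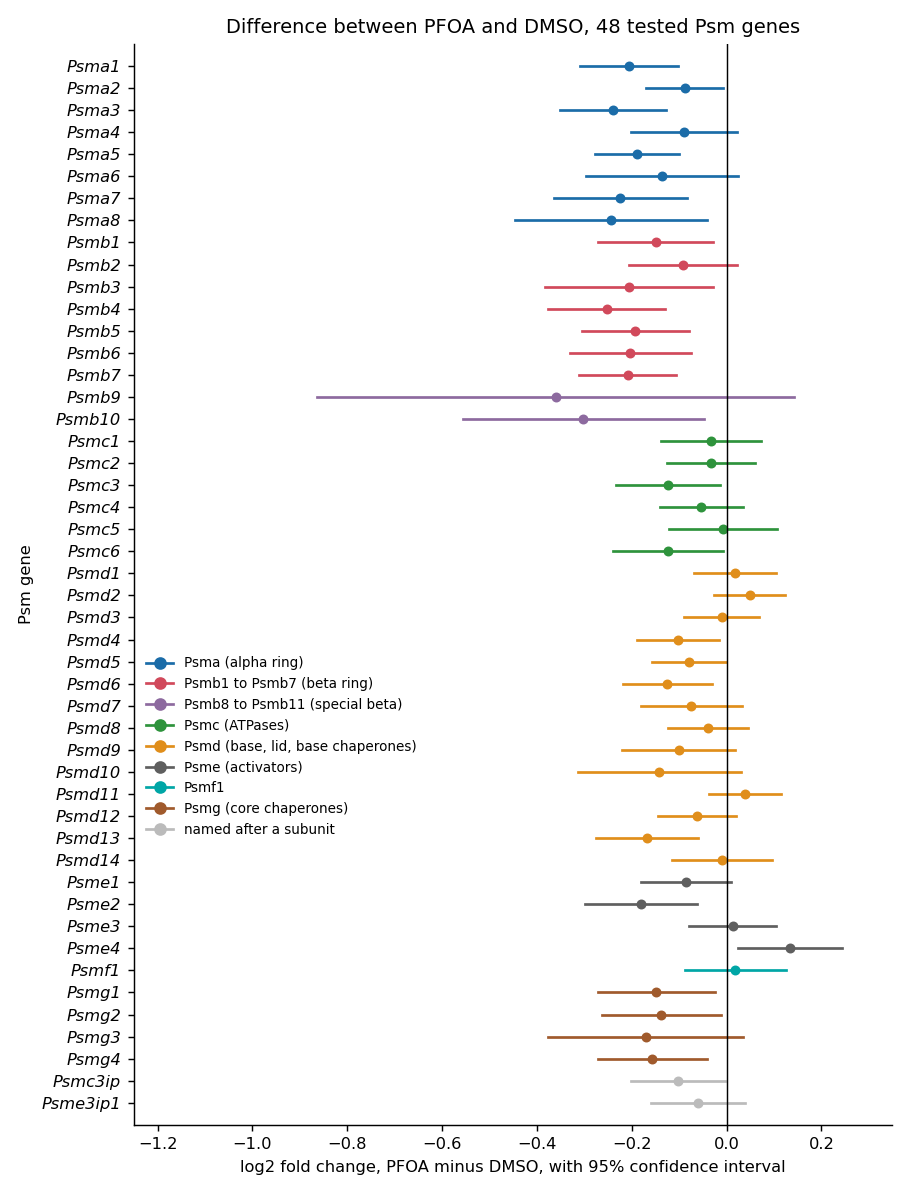
log2 fold change of each of the 48 tested Psm genes (PFOA minus DMSO on the log2(FPKM + 1) scale; points are estimates, lines are 95% confidence intervals from limma with n = 3 libraries a group), coloured by family. The 14 standard core subunits lie left of 0, between −0.25 and −0.088, with Psmb9 and Psmb10 farther left at −0.36 and −0.30, and Psme4 lies farthest right at 0.13.

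The fold change between the groups went with transcript length in these libraries, and the families differ in length. The median longest coding transcript (GENCODE M21) was 899 nt for Psmb1 to Psmb7, 1201 nt for the standard Psma genes, 1688 nt for the ATPases and 1986 nt for the Psmd genes. Among the other tested genes, the 708 under 1000 nt had a log2 fold change of −0.16 at the median and 86.0% were lower, while the 3846 of at least 4000 nt were at a median of 0.066 and 22.2% were lower. The medians of the short genes were 0.0032, 0.022 and −0.029 under DMSO and −0.27, −0.091 and −0.13 under PFOA. Across the 48 Psm genes, which share libraries and are not replicates, Spearman's rho between this length and the fold change was 0.592, and it was 0.595 across all 11701 tested genes with a length. With the median in place of the longest transcript it was 0.209 for the Psm genes and 0.451 for all genes. The annotation makes some Psm lengths doubtful: Psma3 has a longest transcript of 2846 nt and a median of 859.

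Core and regulatory particle subunits of like length are set side by side here, without a test, and their ranges overlapped in each length range that holds both. Between 1000 and 1500 nt, 7 core subunits had a median log2 fold change of −0.21, from −0.25 (Psmb4) to −0.089 (Psma4). The 1056 other genes of that length had a median of −0.11, and 6 of the 7 core subunits were below it. The regulatory particle has 3 Psm subunits in that range: Psmc4 (−0.053), Psmc5 (−0.0068) and Psmd6 (−0.12), the last below Psma4. Sem1, with a longest transcript of 1472 nt, also falls there, at −0.13, below Psma4 and below the median of the other genes. From 1500 to 2000 nt, the 9 Psm subunits of the regulatory particle had a median of −0.063 and the 1334 other genes −0.074. The single core subunit Psmb1 was at −0.15, with the lid subunit Psmd13 below it at −0.17. Adrm1, with a longest transcript of 1535 nt, was at −0.15. From 2000 to 4000 nt, the core subunits Psma2 and Psma3 were at −0.088 and −0.24, while the 5 regulatory particle subunits had a median of 0.018, from −0.12 (Psmc6) to 0.049 (Psmd2), and the 4709 other genes −0.013. Under 1000 nt the 4 core subunits Psmb2, Psmb3, Psmb5 and Psmb6 had a median of −0.20, and the other genes −0.16.

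**Figure D4:**
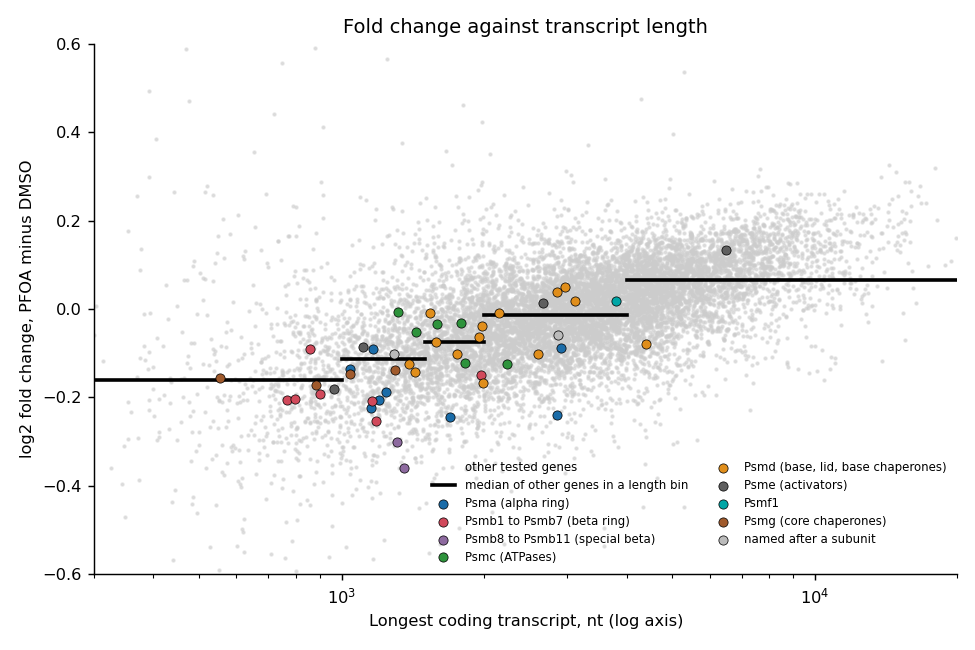
log2 fold change (PFOA minus DMSO) against the longest coding transcript (log axis) for the tested genes, with Psm genes coloured by family and black bars for the median of the other genes in 5 length bins; 52 of 11653 other genes lie outside the axes. Most short genes are lower, at a median of −0.16 under 1000 nt, and the core subunits between 1000 and 1500 nt lie mostly below the bar of their bin, at −0.11.

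After each library was corrected for a trend on the longest transcript, 31 of the 48 Psm genes were lower (54.1% of all genes), with a median of −0.035. At an unadjusted limma p under 0.05, 10 were lower (8.37% of all genes) and 0 higher (5.01%), and 0 passed when adjusted over all genes. Of these 10, 8 were core subunits: Psma1, Psma2, Psma3, Psma5, Psma7, Psmb1, Psmb4 and Psmb7. The others were the lid subunit Psmd13 and the base chaperone Psmd5. The core median was −0.083, with 12 of 14 lower, and the regulatory particle median 0.016, with 6 of 17 lower. Adrm1 and Sem1, outside these 17, were at −0.067 and −0.041. By library the core medians were −0.0078, 0.0076 and 0.010 under DMSO and −0.10, −0.072 and −0.070 under PFOA, so the groups stayed apart. Those of the regulatory particle were −0.0058, −0.0063 and 0.00089 under DMSO and 0.033, −0.0050 and 0.041 under PFOA, with overlap. Psma3 remained lower (−0.23), while Psmb5 and Psmb6 went to −0.053 and −0.051 and Psme4 to 0.043. The core chaperones went to a median of −0.027, with Psmg4 at 0.033. With the trend on the median transcript length removed instead, the core median was −0.15, with 14 of 14 lower (6833 of all 11876 genes). The regulatory particle median was then −0.015, with 12 of 17 lower. At an unadjusted limma p under 0.05, 16 Psm genes were lower (1296 of all genes) and 3 higher (674), and 0 passed when adjusted. In that fit Psma3, Psmb5 and Psmb6 were at −0.19, −0.14 and −0.15. Whether the length trend itself is technical or part of the response to PFOA was not tested.

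**Figure D5:**
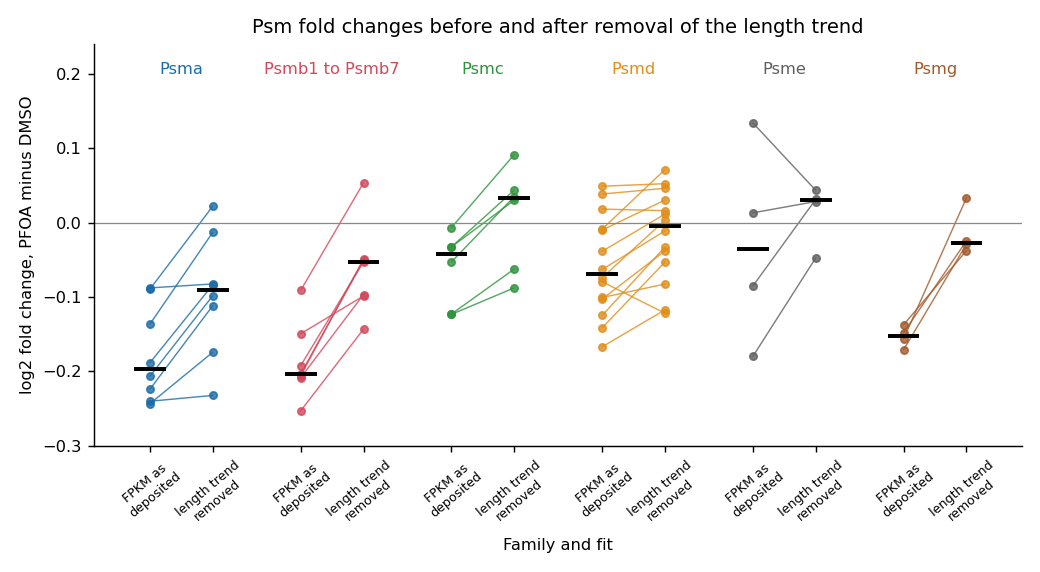
log2 fold change (PFOA minus DMSO) of each tested Psm gene, from FPKM as deposited and after removal of a per-library trend on the longest transcript, by family (lines join a gene's values, black bars are medians). The Psma median goes from −0.20 to −0.091 and that of Psmb1 to Psmb7 from −0.20 to −0.053, while the Psmc median crosses 0 to 0.032.

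Genes that belong to or work with the proteasome but carry other names were read from the same fit. Of them, 0 passed the threshold over all genes (limma). Of 15 tested partners and subunits outside the Psm names, including Adrm1 and Sem1 (Paaf1 was not analysed here), 9 were lower and 6 higher. Their median was −0.034, which quantile normalization turned to 0.0052. At an unadjusted p under 0.05, 4 were lower (12.5% of all genes) and 1 higher (8.56%). Pomp, the maturation factor of the core, was 235, 236 and 231 FPKM under DMSO and 195, 212 and 203 under PFOA, without overlap (log2 fold change −0.20, 95% confidence interval −0.30 to −0.11, limma adjusted p = 0.110). After the length correction it was at −0.23, from a longest annotated transcript of 3850 nt. Ecpas, an adaptor that holds core and regulatory particle together, was 8.40, 8.35 and 8.87 FPKM under DMSO and 9.77, 9.79 and 9.34 under PFOA, higher without overlap (0.16, limma adjusted p = 0.154), on a transcript of 7045 nt. Named after their values were seen, the other 3 lower at an unadjusted p under 0.05 were the base subunit Adrm1 (−0.15), its deubiquitinase partner Uchl5 (−0.14) and the nuclear import factor of the proteasome Akirin2 (−0.13).

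The pathway that raises proteasome synthesis had a median of 0.0045, with 6 of 12 genes higher, and this median had no stable sign: over the alternatives it ran from −0.032 (length correction) to 0.032 (genes with a mean of at least 5 FPKM). Ddi2, the protease that cleaves NRF1, was 39.8, 38.5 and 40.2 FPKM under DMSO and 44.4, 43.2 and 43.7 under PFOA, higher without overlap (log2 fold change 0.14, limma adjusted p = 0.128), and went to 0.010 after the length correction. Nfe2l2, which encodes NRF2, was at −0.064 and Nfe2l1 itself at 0.055, with 95% confidence intervals of −0.15 to 0.023 and −0.028 to 0.14. Of 6 ubiquitin and ubiquitin-activating genes, 3 were lower and 3 higher, with a median of −0.046 that quantile normalization turned to 0.074. Among the lower ones, the ubiquitin gene Rps27a was 1166, 1253 and 1166 FPKM under DMSO and 779.6, 1026 and 904 under PFOA (log2 fold change −0.41, limma adjusted p = 0.118), and Ubb was at −0.11. Neither gene overlapped between the groups. Rps27a also encodes a ribosomal protein.

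The p97 segregase and its cofactors, which hand substrates to the proteasome, had 7 of 10 genes lower with a median of −0.048, and 0 at an unadjusted p under 0.05. Its cofactors Ubxn6 and Ufd1 were at −0.12 and −0.089 (limma adjusted p = 0.276 and 0.291). For the genes of peptide presentation and interferon response, 7 of 10 tested were lower, with a median of −0.045. The presenting molecule H2-D1 was 27.1, 25.2 and 23.8 FPKM under DMSO and 19.4, 23.6 and 21.6 under PFOA, without overlap (−0.23, limma adjusted p = 0.154). The peptide transporter Tap1 was at 0.0053.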

How the data were processed

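Polyadenylated RNA of 3 DMSO and 3 PFOA libraries was sequenced on a BGISEQ-500, per the labels' protocols, from 1.2 µg of RNA with an integrity number above 8.0. The authors deposited FPKM for 18388 gene symbols, to 2 decimals, 1 column per library. HISAT2 2.0.4, Bowtie2 2.2.5 and GRCm39 are named in the submitters' processing notes; their roles, how reads were counted and on which gene models were not found in the sources used here. Depth is unknown, and whole reads were not recovered, so no count test was run. The scale of analysis was log2(FPKM + 1), for 11876 genes (mean FPKM at least 1), which understates fold changes of low genes. The 2 groups were contrasted by limma 3.58.1 under R 4.3.3, its prior variance following intensity, with two-sided p-values Benjamini-Hochberg adjusted over all genes, called under 0.05; the fit was tested on simulated data. GENCODE M21 (GRCm38) gave transcript lengths and the 50-nt words that genes share, matched by symbol without regard to case; a length was found for 98.5% of tested genes. A length trend was removed by a loess curve (span 0.5) per library. Of 51 Psm genes, 43 matched a RefSeq promoter.

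Given with all values are the 2 genes of each family with the smallest p, the cutting subunits and their interferon-induced and tissue-restricted counterparts, Psmf1, Psmc3ip and the highest and lowest Psm gene, and the 2 genes of each pathway list with the smallest p, apart from some that are not reported here. The members and lists were chosen with earlier results of these data known. Alternatives were another filter, pseudocount, normalization and variance model, library weights, a replicate block, leaving out libraries, and removal of length trends; the trend on the median transcript length was added after the data were seen.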

Additional observations from a re-analysis of the deposited data

How the results depend on the processing

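No Psm gene passed the threshold in limma except without PFOA 2, and leaving out 1 library gave 0 to 3 lower. For the fits that leave out libraries, use quantile normalization or use the replicate block, shares over all genes are not given here. The count lower at an unadjusted p under 0.05, 24 as reported, was 13 under quantile normalization, 8 with DMSO 3 as the only control (assumed to vary like the others), 10 with the longest-transcript trend removed, and 13 (without DMSO 2) to 25 without 1 library; without DMSO 1 it was 14. The replicate number as a block gave 20 and 0 called; same-numbered libraries did not deviate together (r = −0.107, −0.00954, −0.138), so the numbers were not taken as pairs. Medians under quantile normalization were −0.062 for all Psm genes, −0.14 for Psma, −0.11 for Psmb1 to Psmb7, 0.029 for Psmc, 0.0014 for Psmd, 0.016 for Psme, 0.074 for the ubiquitin list, 0.0052 for the partners outside the Psm names and −0.014 for p97, so Psmc, Psmd, Psme, ubiquitin and the partners turned direction. With the longest-transcript trend removed they were −0.035 for all, −0.091, −0.053, 0.032, −0.0040, 0.030 and −0.027 for Psma, Psmb, Psmc, Psmd, Psme and Psmg, and −0.032, −0.023 and −0.0017 for the NRF1, p97 and class I lists; Psmg4 turned to 0.033 and Psmf1 to −0.0061. With the median length, Psme was 0.019, Psmg −0.10 and p97 −0.025. Library weights gave −0.025 for p97 and a mean of at least 5 FPKM gave 0.032 for NRF1, which turned to −0.020 with the median length and −0.014 with library weights. Leaving out 1 library gave −0.080 to −0.042 for Psmd (the highest without PFOA 1), −0.089 to −0.0095 for the partners outside the Psm names (the lowest without DMSO 3), −0.050 to −0.021 for p97, −0.0049 to 0.027 for NRF1 (below 0 without DMSO 3, PFOA 1 or PFOA 3), −0.071 to −0.022 for Psmc, −0.049 to −0.012 for Psme, −0.057 to −0.026 for class I and −0.074 to −0.030 for ubiquitin. The smallest differences for Psmc, Psme, p97 and class I came without PFOA 1, the largest for Psmc without PFOA 3 and for ubiquitin without DMSO 3, and the smallest for ubiquitin without PFOA 3. Without PFOA 1, Psmb3 was −0.11 and Psmc6 −0.070; Psmb10 was −0.16 with DMSO 3 as the only control. Psmf1 ranged from −0.012 to 0.038; without PFOA 3 it was −0.012. The cause of these shifts was not tested. The medians of Psma, Psmb1 to Psmb7, Psmg, all Psm genes, p97 and class I stayed below 0 in all 16 alternatives.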
